A study of Homo sapiens with 30 samples.

Results

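The ERBB receptors and their ligands were followed as 10 genes, 4 receptors (EGFR, ERBB2, ERBB3 and ERBB4) and 6 ligands (AREG, EREG, TGFA, HBEGF, BTC and NRG1). Every array probe carrying one of these gene names was taken, whatever its values. All 10 genes were found among the 30484 names on the array, with 20 of its 41000 probes, 8 for the receptors and 12 for the ligands. For each gene the probe with the highest mean vehicle signal served as its main probe.

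ERBB receptors are tyrosine kinases of the cell surface that act as pairs. AREG, TGFA, EREG, HBEGF and BTC are made as membrane-bound precursors, are released by sheddases and bind EGFR, and some of them also bind ERBB4. NRG1 binds ERBB3 and ERBB4. ERBB2 has no known ligand of its own and pairs with the others, ERBB3 has little kinase activity, and the paired receptors signal through RAS and MAP kinases and through PI3K and AKT. In a subset of breast cancers the ERBB2 gene on chromosome 17 is amplified together with its neighbours.

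The data were 30 two-colour arrays from 5 established human lines of breast cancer (ZR-75-30, SK-BR-3, MDA-MB-361, HCC1954 and HCC1419). Each line received recombinant human BMP4, a secreted growth factor of the TGF-beta superfamily, or vehicle. Cells were collected at 6 times, after 30 min and after 1, 3, 6, 12 and 24 h, and 3 wells of each treatment were pooled before RNA extraction. Vehicle RNA was always labelled with Cy3 and BMP4 RNA of the same line and time with Cy5 on the same array. There was 1 array per line and time point, so the 5 lines were the replicates of a time point, and the 6 time points of a line were separately treated cells but not replicates of one condition. The lines have been grown in culture for years and each stands for 1 tumour. Dyes were never swapped, so a dye bias of a probe remains in a ratio set against 0. Only its constant part cancels between arrays. Any part that varies with slide or line would remain when the ratios of lines are compared.

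In the Cy3 channel, 58.9% to 70.6% of all probes on an array were well above background, and the number of arrays limits the precision of what follows. The 12 slides each held 1 line, so line and slide cannot be told apart. Of the 7 scan days, 1 held arrays of more than 1 line (HCC1954 and ZR-75-30). All 6 epithelial markers on the array, including the keratins KRT8, KRT18 and KRT19, were well above background on most arrays, although the cadherin CDH1 and the oestrogen receptor ESR1 were not on any of the 6 arrays of SK-BR-3. Of the markers of other cell types, 1 of 4 for fibroblasts (DCN) and 1 of 3 for leukocytes (PTPRC) was never well above background. Most arrays measured 1 of 4 fibroblast markers (COL1A1), 1 of 3 leukocyte markers (CD14), 1 of 3 endothelial markers (VWF) and 3 of 4 basal markers. CD14 and VWF were measured on every array, and the highest line mean was 7.45 for CD14, 8.08 for VWF and 9.23 for COL1A1. MDA-MB-361 stood apart in its ratios, since 22.3% of all probes differed there from the other 4 lines.

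In vehicle-treated cells, most receptors and ligands had levels that differed between lines. Levels are normalised log2 Cy3 signals, a scale on which 1 unit is 2-fold, and were compared between lines for the same probe and never between genes. By limma's F test over the 5 lines with Benjamini-Hochberg adjustment over all probes, 16 of the 20 member probes passed at an adjusted p under 0.05, and the other 4 were the NRG1 probes. Of all probes 73.1% passed the same test, so the share among the members was near that of the array. Between pairs of lines, HCC1419 differed from HCC1954 at 14 of 20 member probes (49.5% of all probes), from ZR-75-30 at 11 (44.3%), from MDA-MB-361 at 10 (43.3%) and from SK-BR-3 at 9 (47.8%). HCC1954 differed at 12 from MDA-MB-361 (51.3%) and from ZR-75-30 (40.9%) and at 11 from SK-BR-3 (45.5%), and the last 3 pairs differed at 11 each (MDA-MB-361 and SK-BR-3 54%, MDA-MB-361 and ZR-75-30 46.8%, SK-BR-3 and ZR-75-30 43.6%). In pooled RNA, fewer cells making a transcript and less transcript per cell cannot be told apart. The tests between lines, here and for the ratios below, took their error from arrays of a line at different times. No line was repeated at the same time, and no slide was shared between lines. These p-values and the SDs of a line therefore describe spread among its arrays. How well a line's level would repeat in a new culture was not tested.

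EGFR, the receptor for most of these ligands, was measured by 10 spots of a single probe at chr7:55242335-55242394 (hg18). The vehicle level ran from 10.06 over a median of 10.44 to 10.69 in HCC1954 and from 9.86 over 10.27 to 10.74 in SK-BR-3. It was 8.47, 8.69 and 8.74 (lowest, median, highest) in MDA-MB-361, and 6.66, 6.83 and 6.95 in ZR-75-30, where 2 of 6 arrays were well above background. In HCC1419 none of the 6 arrays was well above background. The lines thus fell into a high pair, a middle line and a low pair with no overlap between these levels. HCC1954 and SK-BR-3 did not differ beyond their spread (difference 0.14 ± 0.10 SE, adjusted p = 0.32, limma), whereas SK-BR-3 stood 3.17-fold above MDA-MB-361 (adjusted p = 2.1e-12). MDA-MB-361 averaged 8.63 and ZR-75-30 averaged 6.81 (adjusted p = 6.6e-13), a difference of 1.82 log2 units that became 3.83 with the software's processed signals, so its size is not settled. Relative to HCC1419, EGFR was at least 14.5-fold higher in HCC1954, at least 13.2-fold in SK-BR-3 and at least 4.18-fold in MDA-MB-361.

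ERBB2 was bright in every line on its main probe, the more 3′ of its probes (chr17:35138355-35138414, 10 spots). On no array were most of these spots saturated, but single saturated spots were not counted. HCC1419 averaged 17.50 ± 0.10 (SD, n = 6), MDA-MB-361 averaged 17.24 ± 0.14, SK-BR-3 averaged 17.22 ± 0.22 and HCC1954 averaged 17.17 ± 0.23. ZR-75-30 was lowest, with 15.53 as its lowest value, 15.82 as its median and 16.23 as its highest. All 6 of its values were below every value of the other lines. No neighbours in the order of the upper 4 lines differed (adjusted p of 0.074, 0.91 and 0.77, limma), although HCC1419 and HCC1954 at its ends did (0.33 ± 0.11 SE, adjusted p = 0.020). HCC1954 exceeded ZR-75-30 by 2.47-fold (adjusted p = 1.4e-09). The difference was 0.98 log2 units with the scan day as a further block (adjusted p = 3.9e-05), this being the only pair of lines for which such a fit was possible.

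ERBB3, the receptor that pairs with ERBB2, had its highest level in HCC1419 (10.98, 11.24 and 11.42 as lowest, median and highest) and its lowest in HCC1954 (8.38, 8.98 and 9.46) on the main probe at chr12:54782427-54782486. HCC1419 and ZR-75-30 were neighbours that did not pass the test (0.39 ± 0.17 SE, adjusted p = 0.075, limma), as were MDA-MB-361 and SK-BR-3 (0.20 ± 0.17, adjusted p = 0.35). HCC1954 was 1.17 log2 units below SK-BR-3, the next line (adjusted p = 4.3e-06). On these main probes the order therefore ran against that of EGFR at its top and bottom, HCC1954 being highest for EGFR and lowest for ERBB3, and HCC1419 the reverse. On the dimmest ERBB3 probe SK-BR-3 was highest (7.75), and HCC1954 (7.14) did not differ from HCC1419 (7.26, adjusted p = 0.52, limma). On the remaining ERBB3 probe HCC1419 was again highest and HCC1954 lowest. ERBB4, a receptor for NRG1 and HBEGF, was highest in HCC1419 as well, with values from 9.41 to 9.85. It averaged 8.04 ± 0.43 (SD, n = 6) in MDA-MB-361 and 7.30 ± 0.29 in ZR-75-30, and it cleared the background threshold on 1 of 6 arrays in HCC1954 and on none in SK-BR-3. HCC1419 was 2.93-fold above MDA-MB-361 (adjusted p = 3.1e-08, limma) and at least 6.86-fold above SK-BR-3.

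**Figure D1:**
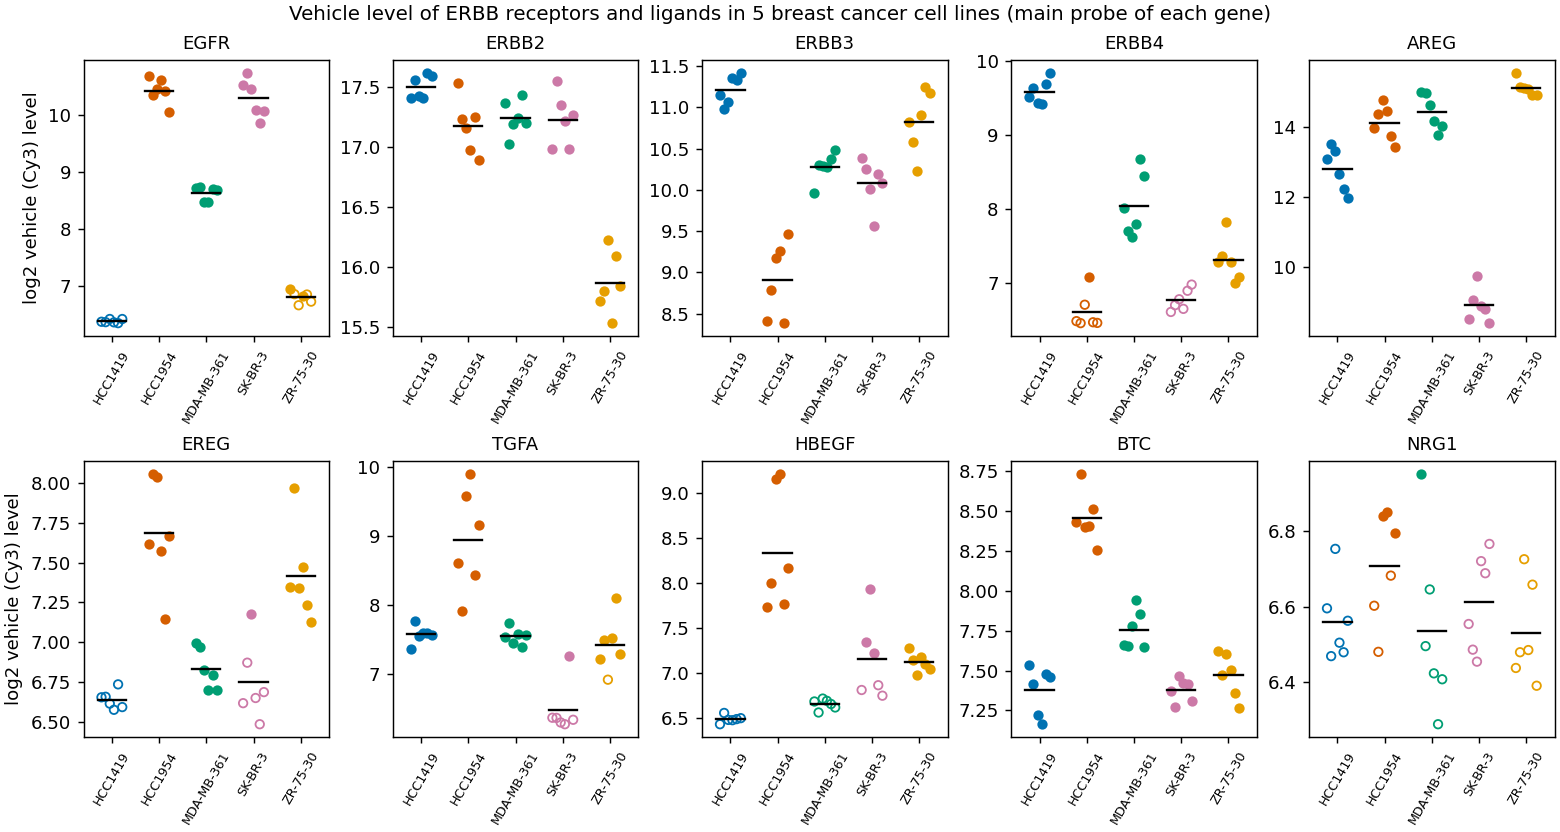
Vehicle log2 Cy3 level (y axis, a separate scale in each panel) of the main probe of each gene in the 5 lines (x axis); points are the 6 arrays of a line in order of time, open where the probe was not well above background, and the bar is the mean. ZR-75-30 lies below the other lines for ERBB2, HCC1954 is highest for EREG, TGFA, HBEGF and BTC, and SK-BR-3 is lowest for AREG.

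AREG (amphiregulin, an EGFR ligand) spanned the widest range of all members on this scale, 6.24 log2 units between line means. The ranges of members that end in a line at background, such as EGFR, are lower bounds. In ZR-75-30 its vehicle level ran from 14.92 over a median of 15.10 to 15.56, in MDA-MB-361 from 13.77 over 14.40 to 15.02, and in HCC1954 from 13.43 over 14.18 to 14.77. It was 11.96, 12.87 and 13.52 in HCC1419 and 8.38, 8.83 and 9.72 in SK-BR-3. SK-BR-3 thus lay below every value of the other lines. HCC1419, the next line, was 15.02-fold higher (adjusted p = 7.5e-15, limma) and ZR-75-30 was 75.6-fold higher (adjusted p = 2.1e-18). MDA-MB-361 and HCC1954 did not differ beyond their spread (adjusted p = 0.17).

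HCC1954 was the highest line for 4 of the other ligands. TGFA (transforming growth factor alpha) averaged 8.93 ± 0.75 (SD, n = 6) there, against 7.57 ± 0.13 in HCC1419, the next line (adjusted p = 4.5e-05, limma), and 1 of 6 SK-BR-3 arrays measured it above background. HBEGF (heparin-binding EGF-like growth factor) averaged 8.34 ± 0.67 in HCC1954 and 7.16 ± 0.45 in SK-BR-3 (adjusted p = 1.2e-05). No array of MDA-MB-361 or HCC1419 measured it, and HCC1954 was at least 3.20-fold and at least 3.29-fold higher than these. BTC (betacellulin) averaged 8.46 ± 0.16 in HCC1954 and 7.76 ± 0.12 in MDA-MB-361 (adjusted p = 6.9e-08), while ZR-75-30, HCC1419 and SK-BR-3 lay between 7.38 and 7.47 and did not differ as neighbours (adjusted p of 0.39 and 0.98). EREG (epiregulin) averaged 7.68 ± 0.34 in HCC1954 and 7.41 ± 0.30 in ZR-75-30 (adjusted p = 0.057), and no array of HCC1419 measured it above background. NRG1 was measured by 4 probes, of which the main probe cleared the background threshold on 4 of 30 arrays and the others on 1, 0 and 0. Its levels could not be ordered. With the software's processed signals, which carry no added offset, differences that involve a dim line were larger for these ligands as well, 2.43 in place of 1.18 log2 units for HBEGF between HCC1954 and SK-BR-3, and 1.88 in place of 0.85 for EREG between HCC1954 and MDA-MB-361.

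Some genes followed the members across the 30 arrays. The level of AREG correlated most closely with those of TMSL3 (Pearson's r = 0.97), TXNDC13 (r = 0.96) and HOMER2 (r = 0.96), among 24646 probes well above background on at least 15 arrays. EGFR was followed most closely by OSBPL3 (r = 0.97), IL1RAP (r = 0.96) and SLC46A1 (r = 0.95), and ERBB4 by CYP4V2 (r = 0.97), KIAA1257 (r = 0.97) and FAM129A (r = 0.96). These correlations are given as a description, since the 6 arrays of a line share their cells and the 5 line means carry most of each pattern. OSBPL3 and IL1RAP, like EGFR, were well above background on no array of HCC1419. KIAA1257 was on none of HCC1954 or SK-BR-3, and FAM129A on 1 of HCC1954 and none of SK-BR-3, where ERBB4 was also near background. Signals near background in these lines therefore enter the r values.

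The effect of BMP4 was read as the log2 ratio of the BMP4 to the vehicle signal on the same array. Over the 5 lines together, no member probe differed from 0 at any time point by limma with adjustment over all probes. The shares of all probes called were, in order of time, 0.0805%, 0.973%, 0.349%, 0.176%, 0.463% and 1.58%, so that a count of 0 among 20 was near the background. At an unadjusted p under 0.05 the numbers of the 20 probes were, in the same order, 0, 3, 0, 1, 1 and 5, against 7.09%, 14.3%, 10.3%, 6.96%, 12% and 14.5% of all probes. The mean ratios of the 10 main probes at the 6 time points lay between -0.18 and 0.35. The smallest adjusted p was that of TGFA at 24 h (0.12, limma), where its ratio ran from -0.38 to 0.02 and was below 0 in 3 of 5 lines. A ratio of 2-fold or more was seen in 2 of 600 values of member probes (0.333%), against 0.5% of the values of all probes, and these were AREG at 6 h and ERBB4 at 24 h, each in MDA-MB-361.

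No member changed over time across the lines either. The F test over the 6 time points with line as a block called 0 of 20 member probes against 0.0902% of all probes (0 and 4.2% at an unadjusted p under 0.05). The contrast of the mean of 3 to 24 h against 30 min, referred to here as the late change, also called 0 against 0.0927% (0 and 4.99% unadjusted). Ratios did differ between lines for 4 of 20 member probes, in the F test over lines with time point as a covariate. Of all probes 22.2% passed this test, so the share among the members was near that of the array. The 4 were EGFR (adjusted p = 0.0075), the upstream ERBB2 probe (0.015), an ERBB3 probe (0.041) and AREG (0.048, limma). These calls depended on the processing. In 11 alternatives the upstream ERBB2 probe passed 8 times, EGFR 7, the ERBB3 probe 4 and AREG 3. With slide as a random block 2 members passed, where 7989 of all probes were called (9092 in the main fit). With median centring in place of loess 0 did, where 5 of all probes were called. Without MDA-MB-361 no member passed.

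**Figure D2:**
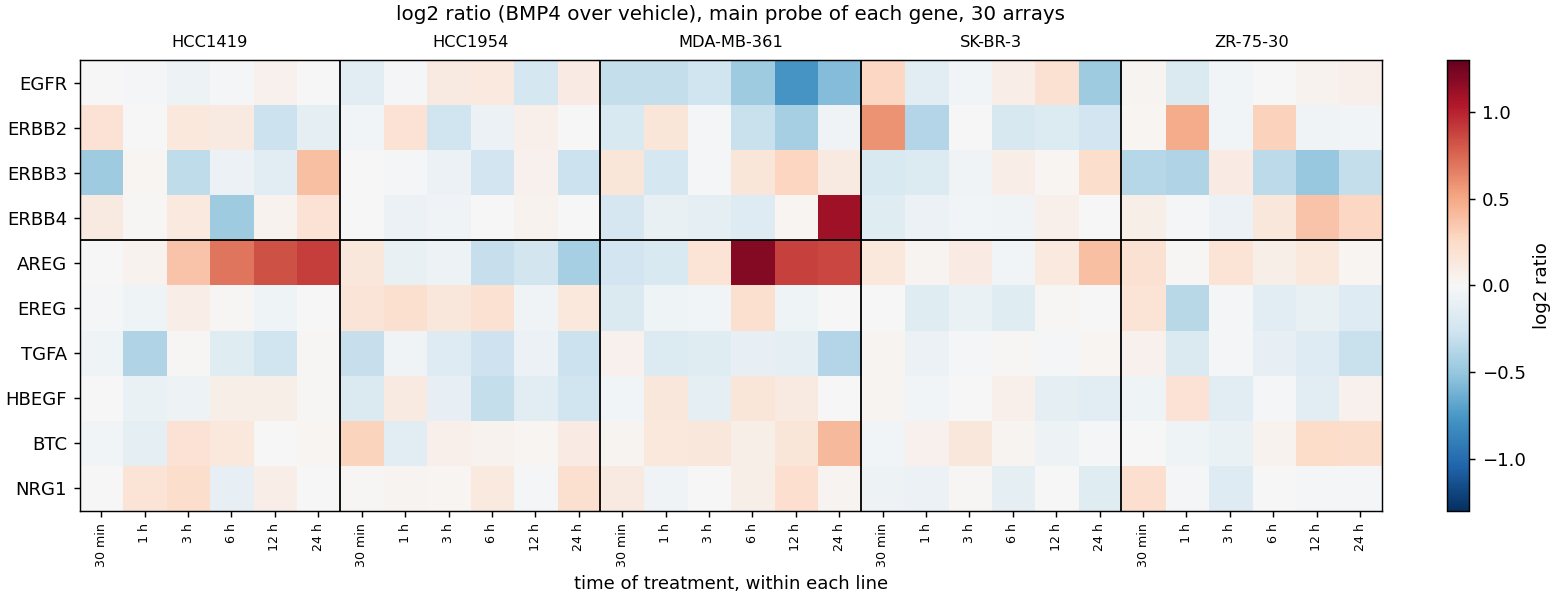
Log2 ratio of BMP4 over vehicle (colour) for the main probe of each gene (y axis, receptors above the line and ligands below it) on the 30 arrays, ordered by line and by time within a line (x axis). The strongest colours are AREG from 6 h in MDA-MB-361 (up to 1.20) and HCC1419 (up to 0.90), ERBB4 at 24 h in MDA-MB-361 (1.10), and EGFR in MDA-MB-361, which is below 0 at all 6 time points.

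AREG lies on chromosome 4 (probe at chr4:75539382-75539441, hg18) beside EREG. The RefSeq sequence (GRCh38.p14) of the 250 bases before the transcript start is shown for both. AREG was chosen for the widest spread of levels, on the scale used here, and of ratios, and EREG as its neighbour. RefSeq windows matched 8 of the 9 members looked up by symbol, without ERBB3, and NRG1 was not looked up. The capitals mark matches to the letters searched on both strands. These were TGACGTCA, known as a cAMP response element, TATAAA, known as a TATA box, the pentamer CCAAT, and GGCGCC, an element of the kind bound by BMP-activated SMAD proteins.
AREG: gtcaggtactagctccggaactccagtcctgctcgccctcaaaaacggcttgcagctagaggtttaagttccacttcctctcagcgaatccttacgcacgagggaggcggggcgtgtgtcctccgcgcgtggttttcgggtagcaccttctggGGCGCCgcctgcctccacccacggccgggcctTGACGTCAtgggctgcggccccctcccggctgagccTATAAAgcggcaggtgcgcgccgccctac
EREG: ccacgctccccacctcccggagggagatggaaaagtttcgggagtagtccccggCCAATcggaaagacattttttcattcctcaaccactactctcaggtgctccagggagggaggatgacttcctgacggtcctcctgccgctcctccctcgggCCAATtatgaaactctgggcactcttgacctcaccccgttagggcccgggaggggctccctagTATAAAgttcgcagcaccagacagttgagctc
In AREG (chr4:74444886-74445135, plus strand) GGCGCC began 97 bases, TGACGTCA 65 bases and TATAAA 29 bases before the start. In EREG (chr4:74364895-74365144, plus strand) TATAAA began 32 bases before the start, and the pentamer was found 196 and 95 bases before it. Of 35116 windows of the same length, 16.4% held the SMAD-type element, 1.65% the cAMP response element, 10.7% the TATA box and 32.0% the pentamer. The SMAD-type element was also found in the windows of TGFA and HBEGF, and in none of the other members matched. A match of letters describes the sequence and is not a measured binding site.

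The AREG ratio was higher late than early in HCC1419 and MDA-MB-361, although this did not pass the tests given here. From the first to the last time point it was -0.01, 0.05, 0.37, 0.70, 0.83 and 0.90 in HCC1419. In MDA-MB-361 it was -0.25, -0.19, 0.18, 1.20, 0.89 and 0.86. Both lines were near or below 0 in the first hour and above 0.6 from 6 h onward. In HCC1954 the ratio went the other way, with 0.15, -0.10, -0.07, -0.30, -0.24 and -0.43. SK-BR-3 ranged from -0.04 to 0.39 and ZR-75-30 from 0.01 to 0.20.

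The late change of AREG was 1.03 ± 0.25 (SE) in MDA-MB-361 (adjusted p = 0.29, limma), 0.71 ± 0.25 in HCC1419, 0.01 in SK-BR-3, -0.09 in ZR-75-30 and -0.40 in HCC1954. None of these passed, and no other member probe passed within a line. The shares of all probes called were 0.0514% in MDA-MB-361, 0.0244% in HCC1419, 0.366% in SK-BR-3, 0% in ZR-75-30 and 0.0244% in HCC1954. At an unadjusted p under 0.05 the late change counted 1, 1, 2, 4 and 3 of 20 in these lines, against 5.26%, 1.55%, 10.5%, 9.33% and 4.1% of all probes. A test of whether the late change differed between lines gave an unadjusted p = 0.0042 in limma and an adjusted p of 0.58, while 0.0588% of all probes passed. HCC1419 held all its arrays on 1 scan day, as did MDA-MB-361, and the mean of the later time points minus the mean of 30 min and 1 h was 0.68 and 1.00 there. On the single slide of HCC1419 that held 30 min to 6 h, the difference was 0.51. In MDA-MB-361, 30 min and 1 h were on another slide than the later times, so time and slide cannot be told apart. With each array centred on its median instead of corrected by loess, the late change became 1.93 in HCC1419 and 0.72 in MDA-MB-361, so its size in HCC1419 depended on this correction. Between lines the mean AREG ratio passed the test for 1 pair, HCC1954 and MDA-MB-361 (-0.61 ± 0.18 SE, adjusted p = 0.043, limma). HCC1419 minus HCC1954 was as large (0.64 ± 0.18 SE) but did not pass (adjusted p = 0.14, limma). The adjustment was made over all probes within each pair, so like differences can fall on either side of the threshold.

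The channels behind the ratio took different courses. In HCC1419 the vehicle level of AREG was 13.08, 13.52, 13.32, 12.65, 12.22 and 11.96 from 30 min to 24 h, whereas the BMP4 level was 13.07, 13.56, 13.70, 13.35, 13.05 and 12.86. In MDA-MB-361 the vehicle level was 15.02, 14.98, 14.64, 14.16, 13.77 and 14.03 and the BMP4 level 14.77, 14.78, 14.83, 15.36, 14.66 and 14.89. In both lines the vehicle level was thus lower late than early, whereas the BMP4 level ended near where it began. In MDA-MB-361 the early and the later arrays were on different slides. In HCC1419 the 12 h and 24 h arrays, with the lowest vehicle levels, were on another slide than the earlier times. On the slide that held 30 min to 6 h, the mean vehicle level of 3 and 6 h minus that of 30 min and 1 h was -0.31. The vehicle level at 24 h was below that at 30 min in all 5 lines, by -1.12 in HCC1419, -0.99 in MDA-MB-361, -0.64 in ZR-75-30, -0.54 in HCC1954 and -0.13 in SK-BR-3 on the log2 scale. The matching differences in the BMP4 channel were -0.21, 0.12, -0.81, -1.12 and 0.13. In every line the 30 min and 24 h arrays were on different slides, and in HCC1954, SK-BR-3 and ZR-75-30 also on different scan days. Time and slide therefore cannot be told apart in these differences of level. The lines did not share a sign when all later times were averaged, since the late change of the vehicle level was -0.87 in MDA-MB-361, -0.55 in ZR-75-30 and -0.54 in HCC1419 but 0.13 in HCC1954 and 0.43 in SK-BR-3. The vehicle level of AREG over time gave an unadjusted p = 0.00022 and an adjusted p = 0.086 in limma. No member probe passed that test, and of all probes 0.144% did. At an unadjusted p under 0.05, 2 of 20 did, against 9.81% of all probes. The late change of the vehicle level called 0 of 20 against 0.00488% of all probes (1 and 10.4% unadjusted), and its difference between lines 0 against 1.29% (1 and 15.1% unadjusted). In the BMP4 channel the change over time called 0 of 20 against 0.873% (3 and 13.8% unadjusted) and the late change 0 against 0.288% (3 and 13.3% unadjusted).

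**Figure D3:**
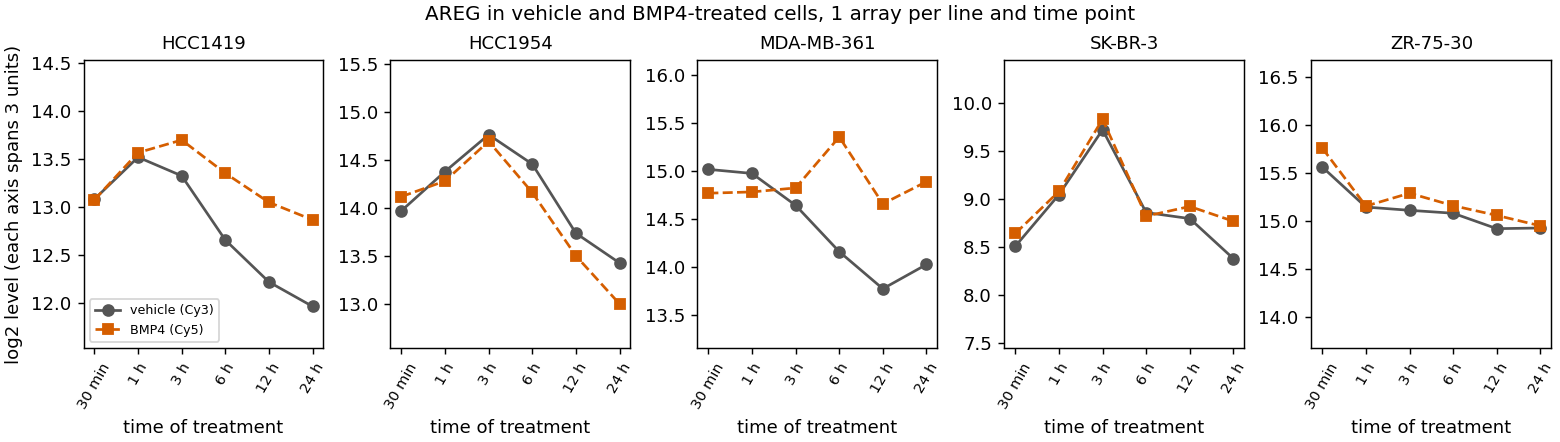
AREG log2 level (y axis, 3 units in each panel) in vehicle (Cy3, circles) and BMP4-treated cells (Cy5, squares) against time of treatment (x axis), 1 panel per line and 1 array per point. In HCC1419 and MDA-MB-361 the vehicle line lies below the BMP4 line from 3 h on, in HCC1954 the BMP4 line ends lower (13.00 against 13.43 at 24 h), and in ZR-75-30 the lines stay within 0.20 of each other.

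Across the 30 arrays the AREG ratio correlated most closely with those of CDH10 (Pearson's r = 0.86), a cadherin, POMT1 (r = 0.85) and UCK1 (r = 0.83). CDH10 had a mean ratio of 1.20 in HCC1419 and 1.19 in MDA-MB-361, where all 6 arrays measured it in the vehicle channel, and 0.28 in SK-BR-3, where 3 of 6 did. No array of ZR-75-30 or HCC1954 measured it there, and its ratios near 0 in these lines carry no information. The arrays of a line share their cells, so these are descriptions over 30 arrays of 5 lines.

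EGFR had a negative ratio in MDA-MB-361 throughout. There its ratio was -0.31, -0.31, -0.26, -0.47, -0.77 and -0.56 in order of time, so the BMP4 signal was below the vehicle signal on all 6 arrays. Without a dye swap, an effect of BMP4 and a dye or slide offset in this line cannot be told apart. The mean ratios of the other lines were -0.01 in each of them, with a range of -0.46 to 0.27 in SK-BR-3, -0.22 to 0.13 in HCC1954 and -0.19 to 0.07 in ZR-75-30. HCC1419 was not well above background and ZR-75-30 was on 2 of 6 arrays, so their ratios carry little or no information on EGFR. MDA-MB-361 against the mean of the other lines gave -0.44 ± 0.08 (SE, adjusted p = 0.00062, limma). In a fit over the 18 arrays of the 3 lines in which every array measured EGFR, the difference was -0.44 ± 0.10 (SE, adjusted p = 0.011), with -0.44 ± 0.12 against HCC1954 (adjusted p = 0.032) and -0.43 ± 0.12 against SK-BR-3 (adjusted p = 0.026), while 18.3% of all probes passed there. Over all 5 lines, 3 of the 20 member probes passed, against 22.3% of all probes, so the count was no higher than the background. The ratio of EGFR was lower in MDA-MB-361, and those of the upstream ERBB2 probe and an ERBB3 probe (0.17, adjusted p = 0.018, limma) were higher. The same contrast called 0 member probes in HCC1419, HCC1954, ZR-75-30 and SK-BR-3, against 2.25%, 0.039%, 9.88% and 0.0341% of all probes. At an unadjusted p under 0.05 it counted 3, 3, 3 and 2 of 20, against 15.8%, 7.81%, 24.7% and 11.3%. With median centring in place of loess the EGFR difference was -0.38 and no longer passed (adjusted p = 0.10). The ratio was already negative at 30 min, and its late change of -0.20 ± 0.19 (SE) did not pass.

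**Figure D4:**
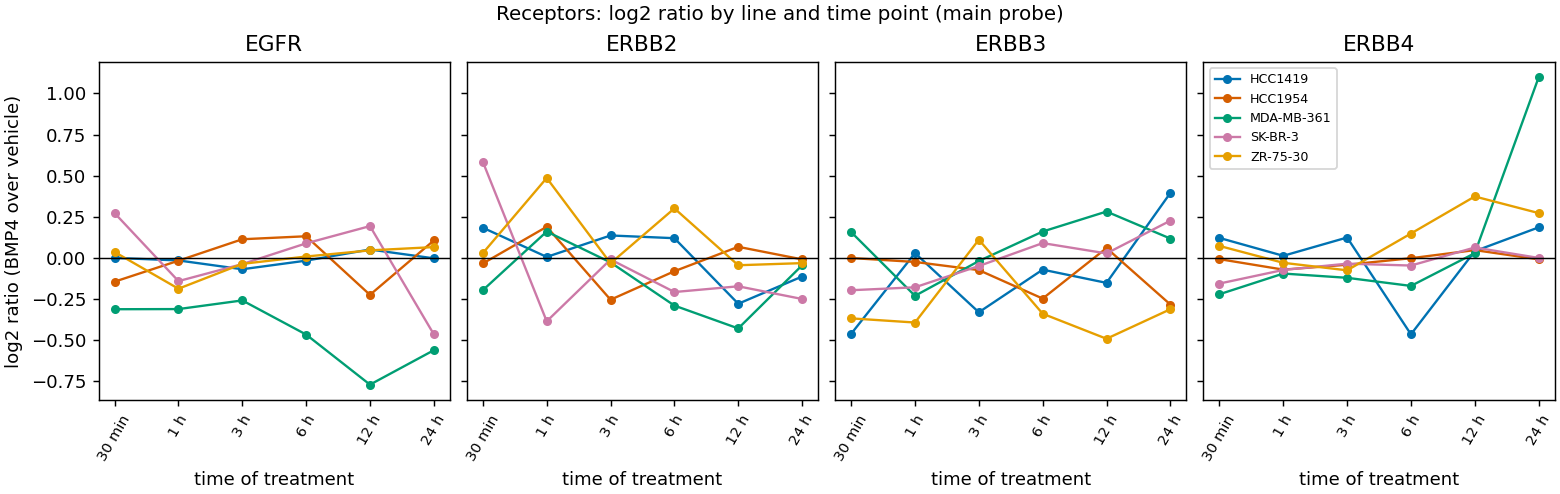
Log2 ratio of BMP4 over vehicle (y axis, shared) of the 4 receptors against time of treatment (x axis), 1 line and colour per cell line and 1 array per point. MDA-MB-361 is lowest for EGFR at every time point, down to -0.77 at 12 h, and stands at 1.10 for ERBB4 at 24 h, while the other ERBB4 values lie between -0.46 and 0.37.

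ERBB4 at 24 h in MDA-MB-361 had a ratio of 1.10, after -0.22, -0.10, -0.12, -0.17 and 0.03 at the earlier times. Its second probe, at chr2:211955253-211955312, read 0.49 on that array. The other lines at 24 h were at 0.27 in ZR-75-30, 0.19 in HCC1419, and 0.00 or -0.01 in SK-BR-3 and HCC1954, where ERBB4 was barely or not above background. The mean at 24 h was 0.31 ± 0.46 (SD, n = 5, adjusted p = 0.12, limma), so the spread between lines was larger than the mean. The value rests on 1 array.

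ERBB2 on its main probe showed no steady direction. In SK-BR-3 its ratio was 0.58 at 30 min and then -0.39, -0.01, -0.21, -0.17 and -0.25, which gave the late change of -0.74 ± 0.18 (SE, adjusted p = 0.080, limma). The 30 min and 1 h arrays of SK-BR-3 were on another slide and scan day than the later ones, so time and slide cannot be told apart there. In the other lines the ratios lay between -0.43 and 0.49. ERBB3 on its main probe lay between -0.49 and 0.40, below 0 on 5 of 6 arrays in ZR-75-30 (mean -0.30 ± 0.21, SD, n = 6) and above 0 on 4 of 6 in MDA-MB-361 (0.08 ± 0.18). That pair differed by 0.38 ± 0.12 (SE, adjusted p = 0.029, limma), although the F test over all lines did not pass (adjusted p = 0.13).

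The remaining ligands had ratios in a narrow range. TGFA had negative ratios at 1 h in all 5 lines, from -0.40 to -0.05 (adjusted p = 0.15, limma). Only 1 of 6 SK-BR-3 arrays measured TGFA in the vehicle channel, so its ratio there carries little information. In HCC1954, its highest line, the TGFA ratio was below 0 on all 6 arrays with a mean of -0.19 ± 0.11 (SD, n = 6). The means were similar in MDA-MB-361 (-0.15), HCC1419 (-0.14) and ZR-75-30 (-0.12), and -0.01 in SK-BR-3. HCC1954 did not differ from the other lines (adjusted p = 0.77, limma). Without a dye swap, an effect of BMP4 and a dye offset of this probe cannot be told apart. EREG ranged from -0.36 to 0.21, HBEGF from -0.31 to 0.19 and BTC from -0.13 to 0.42 on their main probes, and none passed a test of the ratio. These ranges include lines in which no array measured the gene, HCC1419 for EREG, and HCC1419 and MDA-MB-361 for HBEGF.

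Where a gene had more than 1 probe, the probes of BTC (r = 0.92 over 30 arrays), HBEGF (r = 0.94), ERBB4 (r = 0.84) and EREG (r = 0.80) followed each other in level. Their ratios agreed less, with r = 0.56 for ERBB4 and 0.49 for HBEGF but -0.11 for BTC and -0.12 for EREG. The ratios of the ERBB2 probes (r = -0.05) did not follow each other either, and the main ERBB3 probe had r = 0.27 and -0.20 with the other 2. The ERBB2 levels did not agree so well (r = 0.46), nor did those of the main ERBB3 probe and the dimmest ERBB3 probe (r = 0.00). The upstream ERBB2 probe (chr17:35120176-35120235, 1 spot) lies on the same strand, and which part of the transcript it reads was not settled here. Its vehicle level was 11.10 ± 0.16 (SD, n = 6) in HCC1419, 10.89 ± 0.32 in HCC1954, 10.82 ± 0.41 in SK-BR-3, 9.63 ± 0.33 in ZR-75-30 and 9.11 ± 0.14 in MDA-MB-361. The probes therefore placed MDA-MB-361 differently, with the upper group on the 3′ probe and 1.78 log2 units below HCC1954 on the upstream probe (adjusted p = 5.2e-10, limma). The upstream probe also gave the higher ratio in MDA-MB-361 than elsewhere, 0.36 ± 0.11 (SE, adjusted p = 0.021), which the 3′ probe did not (-0.15 ± 0.10, adjusted p = 0.32).

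Of 24 gene names listed as neighbours of ERBB2 on chromosome 17, 19 were on the array, each read at its brightest probe. Of these, 16 differed in vehicle level between lines (73.1% of all probes did, dim ones included). The 12 with the smallest p were GSDML, PNMT, ORMDL3, PPP1R1B, STAC2, STARD3, GRB7, TCAP, C17orf37, PERLD1, THRAP4 and PSMD3, with ranges of line means from 1.36 (STAC2) to 8.27 log2 units (GSDML). GRB7, an adaptor protein next to ERBB2, averaged 14.88 in HCC1954, 12.88 in HCC1419, 12.27 in SK-BR-3, 11.42 in ZR-75-30 and 10.72 in MDA-MB-361. STARD3, a cholesterol transporter of late endosomes, averaged 14.71, 13.54, 12.60, 11.98 and 12.21 in the same lines. Both were picked with their values known, and the 19 neighbours were mixed. The lowest line was MDA-MB-361 for 9 of the 19, ZR-75-30 for 6, HCC1419 for 2, and SK-BR-3 and HCC1954 for 1 each. As on the upstream ERBB2 probe, the lower levels were those of MDA-MB-361 and ZR-75-30 for 8 of 19, or 5 of the 16 that differed. The ratios of 4 of the 19 differed between lines (22.2% of all probes did). NR1D1 ran from -0.18 in MDA-MB-361 to 0.18 in ZR-75-30, whereas STARD3 (0.11), GRB7 (0.22) and ORMDL3 (0.19) were highest in MDA-MB-361. This test called far fewer of all probes with median centring in place of loess or without MDA-MB-361, and these neighbours were not tested there. Of these 19 genes 0 rose and 1 fell at 24 h, PERLD1 (-0.26, adjusted p = 0.044, limma), and the median 24 h ratio was -0.03 against 0.00 for all probes.

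**Figure D5:**
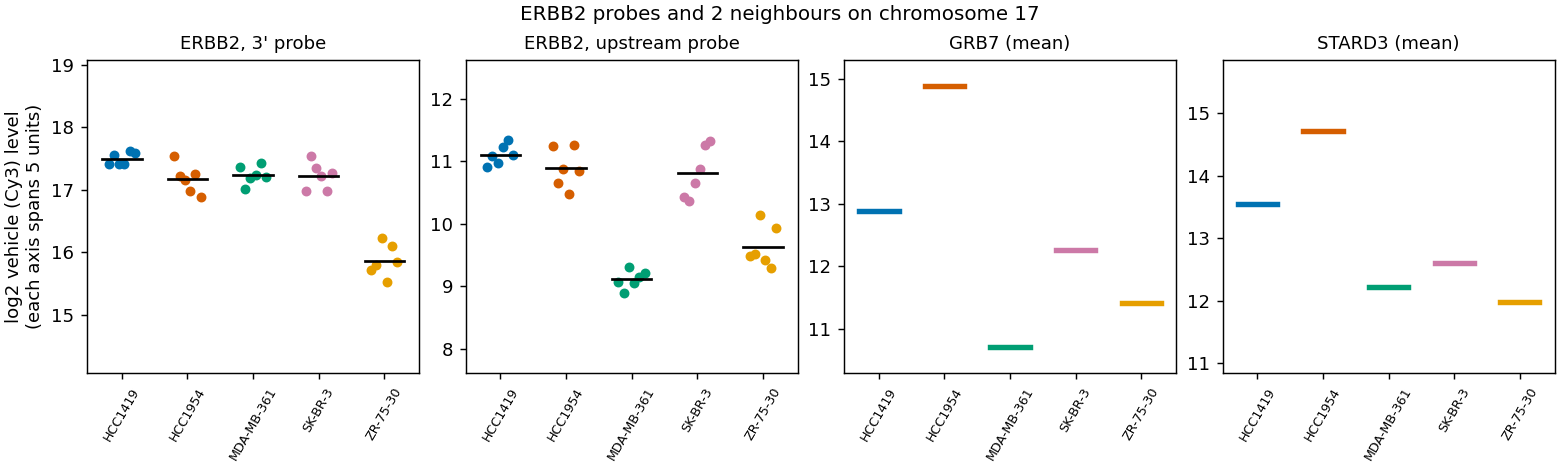
Vehicle log2 Cy3 level (y axis, 5 units in each panel) of the ERBB2 probes, with the 6 arrays of each line as points and their mean as a bar, and the mean level of the neighbouring genes GRB7 and STARD3, in the 5 lines (x axis). MDA-MB-361 is with the upper group on the 3′ probe (17.24) but lowest on the upstream probe (9.11) and for GRB7 (10.72).

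The wider pathway was described by a list of 48 names of other ligands, sheddases, adaptors, RAS, MAP and PI3 kinases and feedback regulators, of which 45 were on the array. At 24 h 1 of them rose and 1 fell, against 1.58% of all probes called. ERRFI1, an intracellular inhibitor of ERBB kinases, had a mean ratio of 0.34 ± 0.27 (SD, n = 5, adjusted p = 0.032, limma), with a range of -0.04 to 0.71 and 4 of 5 lines above 0. LRIG1, a membrane protein that promotes ERBB receptor turnover, had a mean of -0.40 ± 0.09 (adjusted p = 0.0014), from -0.49 to -0.28 with all 5 lines below 0. LRIG1 was also lower at 12 h (-0.31 ± 0.24, adjusted p = 0.025), and its ratio was near 0 at 30 min (0.00 ± 0.16). Neither had a late change that passed, and the list's median ratio at 24 h was -0.05 against 0.00 for all probes.

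Of the same 45 genes, 21 had ratios that differed between lines (22.2% of all probes did). Each gene was read at its brightest probe, and 43 of the 45 were well above background on at least 15 arrays. The share over all probes includes dim ones, so the shares are not of like probes. With median centring in place of loess, or without MDA-MB-361, this test called far fewer of all probes, as given for the members. Which of these list genes would pass in those settings was not tested. The 12 with the smallest p had adjusted p of 0.0025 to 0.019 (limma). MDA-MB-361 had the highest line mean for several of them. Among these were the inhibitors of receptor tyrosine kinase signalling SPRY2 (0.37) and SPRY4 (0.55), the kinases MAP2K1 (0.34), MAP2K2 (0.23) and AKT1 (0.12), the small GTPase HRAS (0.34) and the adaptor SHC1 (0.23). SPRY2 lay between -0.17 and 0.03 in the other lines, and HCC1419 did not measure it. AKT1 lay between -0.60 and -0.24 in them. Others were ordered differently. RNF41, a ubiquitin ligase for ERBB3, was lowest in ZR-75-30 (-0.57), as was the PI3-kinase subunit PIK3CB (-0.62, with -0.47 in MDA-MB-361). The regulatory subunit PIK3R1 ran from -0.31 in ZR-75-30 to 0.26 in HCC1954, and SPRY1 was highest in HCC1419 (0.24).

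Vehicle levels differed between lines for 44 of the 45, again at the brightest probe of each (73.1% of all probes, dim ones included). The 12 with the smallest p (adjusted p up to 7.2e-12, limma) included DUSP6, a phosphatase of MAP kinases, MAP2K1, ERRFI1 and SPRY2, all highest in HCC1954. The line means of these genes spanned from 2.30 (MAP2K1) to 6.16 log2 units (DUSP6). GRB2 and EGF were highest in MDA-MB-361 (ranges of 1.93 and 2.08), LRIG1 and DUSP4 in HCC1419 (2.36 and 3.26), NRAS in ZR-75-30 (6.33) and CBLC in SK-BR-3 (2.83). DUSP6, SPRY2, EGF, NRAS and CBLC were not well above background on every array, which limits their ranges. MDA-MB-361 is also the line in which 22.3% of all probes differed from the rest, and the part of that shift in the ratios given above was not tested.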

How the data were processed

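The authors' deposited files held, per the file headers, scanner intensity values from Agilent Feature Extraction 9.5.1.1 for 45015 spots per array, with probe positions in hg18. The deposited log10 ratio of Cy5 over Cy3 processed signals and the deposited log2 ratio of the series matrix, which equals the same processed signals on the log2 scale, were used as alternatives only.

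Mean and background intensities were corrected by normexp (offset 50), normalised by loess within arrays with 1639 control spots at weight 0, and averaged over the spots of a probe, in limma 3.58.1 under R 4.3.3. Outlier spots were left out, which removed 1146 of the probe and array combinations. Vehicle and BMP4 levels were taken after Aquantile scaling between arrays. A bound ("at least") sets the mean of the brighter line against the dimmer line, taking on each of its arrays the higher of the lowest signal well above background and the probe's own signal. Linear models with empirical Bayes shrinkage were fitted over 30 arrays and 41000 probes, with Benjamini-Hochberg adjustment over all of them and calls at an adjusted p under 0.05. All members were named, with at most 12 genes of a list per comparison by smallest p and the 3 closest probes for likeness, and some list genes are not reported here. Members, lists (45 pathway genes, 19 neighbours, 25 cell markers on the array) and contrasts were chosen with earlier results of these data known. The models were tested on simulated data. Where the label's replicate number is the cell line, the line is a fixed block in tests over time by design: ratio deviations of arrays of the same line had a mean correlation of 0.23 over 75 pairs, against -0.09 between lines. Alternatives covered the software's ratios, median centring, array weights, a filter on dim probes, slide and scan day, leaving out each line and, chosen after seeing the data, the lines with EGFR measured.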

Additional observations from a re-analysis of the deposited data

Results flagged for a closer look

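In 5 of 94 groups of 4 to 10 arrays that were examined, the highest or lowest array stood apart by Dixon's criterion, where chance gives about 1 in 20 groups. At 6 h the EGFR ratio was -0.47 in MDA-MB-361, against -0.02 to 0.13 in the other lines. At 12 h the ERBB4 ratio was 0.37 in ZR-75-30, against 0.03 to 0.06 elsewhere, and at 24 h it was 1.10 in MDA-MB-361, against -0.01 to 0.27 elsewhere. The BTC ratio at 30 min was 0.29 in HCC1954, against -0.03 to 0.04. The AREG vehicle level in ZR-75-30 was 15.56 at 30 min, against 14.92 to 15.14 at the later times. The part of single arrays in these values was not tested.

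Ratios after BMP4 differed between lines for EGFR (adjusted p = 0.0075, limma) and for AREG (adjusted p = 0.048), the former through MDA-MB-361, which was below 0 at all 6 time points, and the latter with its highest line means in HCC1419 (0.47) and MDA-MB-361 (0.45) and its lowest in HCC1954 (-0.16). EGFR passed this test in 7 of 11 alternatives and AREG in 3 of 11, and neither did without MDA-MB-361 or with median centring.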

How the results depend on the processing

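Of the counts of members called, 147 alternative values lay within 1.5 times the reported count and 10 did not. A count of 0 that stayed 0 was scored as within. Of the values for named genes 244 kept their side of the threshold, 23 lost it and 0 changed direction. Adjusted p of F tests are among these values and have no direction. Many others are level differences with very small p, so these tallies say little about the ratios. With the replicate block for the cell line, the test of the ratio against 0 still called 0 of 20 member probes at every time point. The software's log ratio called 1 at 24 h (TGFA), and leaving out each line gave 0 to 1 at 1 h, the 1 being the second EREG probe without MDA-MB-361. The 4 members whose ratio differed between lines (9092 of all probes did) became 2 with the software's log ratio and 1 with the series matrix. They became 0 with median centring in place of loess (where 5 of all probes were called) and 2 with slide as a random block (7989 of all probes). When a line was left out they ranged from 0 to 4. Without MDA-MB-361 none of them passed (96 of all probes were called), without HCC1419 1 passed (EGFR), and without HCC1954 2 did (EGFR and the upstream ERBB2 probe). The causes were not tested beyond what these settings leave out. Where no number of all probes stands beside a count of members in this section, its change cannot be told from a change across the array. The adjusted p of AREG in this test passed in 3 of 11 alternatives (0.0098 to 0.55) and that of EGFR in 7 of 11. EGFR in MDA-MB-361 against the other lines ranged from -0.55 to -0.38 and passed in 10 of 11. The AREG late change in HCC1419 ranged from 0.59 to 1.93 and passed in none of 9 alternatives. The level differences between pairs of lines that were recomputed passed in each alternative, and their size moved by over 1.5 times only with the software's processed signals (EGFR, HBEGF and EREG in dim lines). The highest line of ERBB2 changed in 1 of 4 scalings, to SK-BR-3. The vehicle level over time with line and scan day as blocks called 1 member (AREG). Block settings for slide and scan day were chosen after seeing the data. With a filter on dim probes, 14 of the 20 member probes were kept. Signals near background limit EGFR, TGFA, EREG, HBEGF, NRG1 and ERBB4 in the lines named, and 1 array per line and time limits every time point.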
